A study of Homo sapiens with 11 samples.

Results

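Staufen1 knockdown was examined in HCT116 cells, a line established from a human colorectal carcinoma, that received only the solvent DMSO. Control cells carried an siRNA to luciferase (siLuc), which human cells do not make, and knockdown cells carried one to Staufen1 (siStau1). The comparison takes in the 4 total RNA libraries of DMSO-treated cells, 2 labelled siLuc and 2 labelled siStau1, of 11 libraries in the study. Total RNA of a further pair of groups (siLuc and siStau1 with decitabine, abbreviated DAC, an inhibitor of DNA methylation given at 500 nM over 5 days) was used as a second view of the same knockdown in 4 other libraries. The labels do not say whether replicates came from separate cultures, so the deposited p-values measure the spread between these libraries, which may be technical. The deposited table lists 58699 genes, all of which were kept, and gives for each gene 1 level per group in FPKM (fragments scaled by transcript length and by library size). No level per library was given, so no standard deviation, interval or library left out can stand beside any value, and sequencing depth is unknown.

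Staufen1 is a protein that binds double-stranded stretches of RNA. It transports and helps translate some messenger RNAs, and it marks others for decay when it sits on a structured 3′ untranslated region and recruits the helicase UPF1. Double-stranded RNA is also what the cell reads as a sign of viral infection: sensors such as RIG-I and MDA5 bind it and signal through MAVS, type I and type III interferons are made, and their receptors turn on a large set of interferon-stimulated genes through STAT and IRF transcription factors. The title of the series places the study in this response, during inhibition of DNA methylation, with endogenous retroviruses as the source of the double-stranded RNA.

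The targeted gene was checked first. STAU1 had 35.5 FPKM in siLuc and 29.98 FPKM in siStau1, and STAU2, its paralog, had 27.9 and 40.2 FPKM. Neither was called in the authors' deposited table, with q-values of 0.767 and 0.793. The STAU1 level was slightly lower in siStau1, with a log2 ratio (siStau1 over siLuc, 0.1 FPKM added to each) of -0.24, and that of STAU2 was 0.52. With decitabine STAU1 had 33.7 and 27.1 FPKM, again not called (q = 0.685, the authors' deposited table). These RNA levels thus do not establish the knockdown in either arm. Staufen1 protein was not analysed here, and the group names below are those of the labels. Cell type markers were also examined, which cannot establish the identity of a line. Of 12 colon epithelial markers, 8 were at 1 FPKM or more in either group. Among these were KRT8 (1103 FPKM in siLuc, 834 in siStau1) and EPCAM (259 and 338 FPKM). The other 4 were below 1 FPKM in both groups, 1 of them at 0 in both. Of 14 markers of blood, vessel and stromal cells, 12 were below 1 FPKM in both groups. The latter list summed to 3.54 FPKM in siLuc and 1.84 FPKM in siStau1, mostly from CD68 and COL1A1, with CDH5, COL1A2 and PTPRC at 0 in both groups, and the part of this small sum in the results was not tested.

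A gene is called here when its q-value in the authors' deposited table is under 0.05. Of 15893 genes tested, 0.799% were called, 74 lower (0.466%) and 53 higher (0.333%) in siStau1. Every call was at least 2-fold, the smallest with a log2 ratio of 1.01 in size. Among protein-coding genes, 52 of 12206 were called lower (0.426%) and 19 higher (0.156%). Among processed pseudogenes, which are reverse-transcribed copies of messenger RNAs without introns, 10 of 1356 were called lower (0.737%) and 26 higher (1.92%). The pseudogene calls total 40 over all pseudogene types, 11 lower and 29 higher, and the remaining calls were 11 lower and 5 higher non-coding RNAs. The lower genes were also the better expressed: 47 of 74 lower calls but 24 of 53 higher calls reached 1 FPKM in each group, and 14 lower and 0 higher protein-coding calls had a mean level of 100 FPKM or more.

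**Figure D1:**
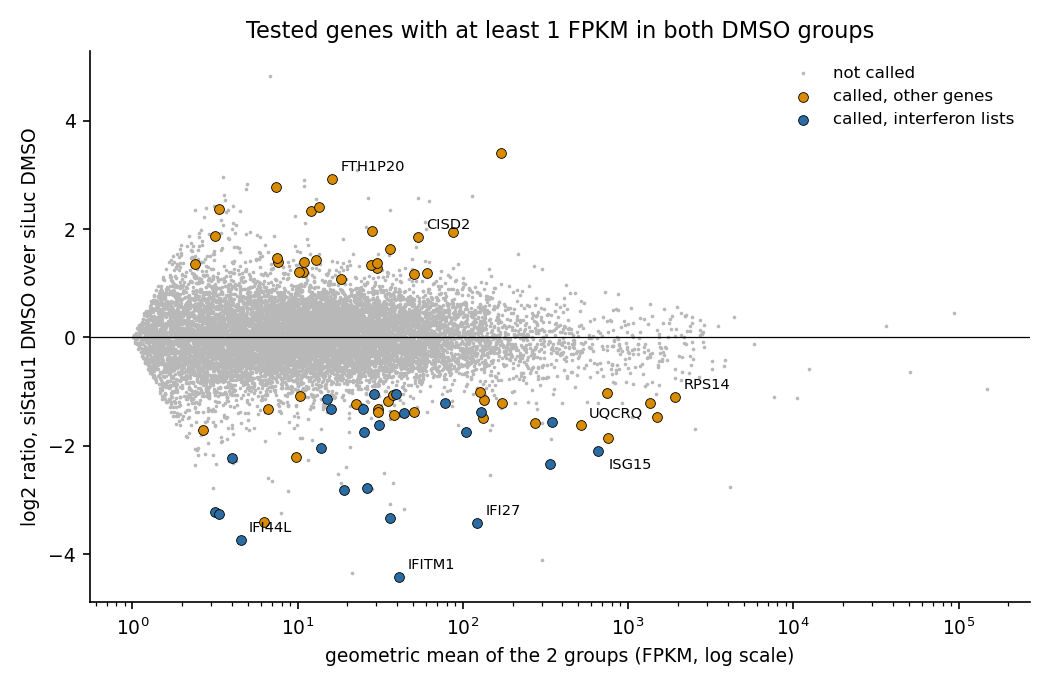
Each point is one of 12547 tested genes that reached 1 FPKM in each DMSO group, with the geometric mean FPKM of the groups on a log axis against the log2 ratio of siStau1 over siLuc. Called interferon-system genes (blue) all lie below 0, as far as -4.43 for IFITM1, while other called genes (orange) lie on both sides.

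The protein-coding genes that fell were led by the interferon system. Of the 52 protein-coding genes called lower, 27 belong to 7 lists of that system, which together hold 108 tested genes, and 0 protein-coding genes of these lists were called higher. The 5 lists that make up the intracellular response (sensors, signalling factors, antiviral effectors, IFI genes and the ISG15 system) held 78 tested genes, of which 24 were called lower (30.8%, against 0.466% of all tested genes). The lists and their members were chosen with earlier results of these data known, so these shares are a description and not a test. None of these 5 lists had a member higher at an unadjusted p under 0.05 in the authors' deposited table, where 2.1% of all tested genes were lower and 2.21% higher at that limit. Of their 75 genes with at least 1 FPKM in either group, 68 had a lower level in siStau1 and 36 were lower by 2-fold or more, and the median log2 ratio was -0.84. The median over 10965 protein-coding genes that reached 1 FPKM in each group was -0.02, with quartiles of -0.33 and 0.31. In bulk RNA, fewer cells making a transcript and less transcript in each cell cannot be told apart.

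The interferons themselves stood at the edge of detection. IFNB1, which encodes interferon beta, the type I interferon made by most cells after infection, had 2.63 FPKM in siLuc and was listed at 0 in siStau1, and it was called lower. The type III interferons, which act mainly on epithelia, had 3.97 and 0.0589 FPKM (IFNL1), 1.99 and 0.0356 FPKM (IFNL2), and 3.35 and 0.124 FPKM (IFNL3) in siLuc and siStau1, and none of them was called. IFNL2 and IFNL3 are near-identical, so how reads were split between them is uncertain. All of these ligands were lower in siStau1, whereas the receptor chains had log2 ratios between -0.38 and 0.56. Of those, IFNAR1, a chain of the type I receptor, had 9.23 and 7.05 FPKM, and IFNLR1, the specific chain of the type III receptor, had 3.02 and 2.43 FPKM. IFNGR1, a chain of the interferon gamma receptor, was the member with the highest ratio, at 14.5 and 21.5 FPKM, and was not called.

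Among the sensors and adaptors, 1 of 12 tested genes was called. DDX58, which encodes RIG-I, fell from 41.5 to 20.2 FPKM. IFIH1, which encodes MDA5 and recognises long double-stranded RNA, had a similar ratio, with 27.2 and 12.9 FPKM, but missed the limit (q = 0.054, the authors' deposited table). DHX58, a regulator of both, had 3.78 and 0.881 FPKM without a call. The adaptor MAVS had 8.27 and 8.49 FPKM, the endosomal receptor TLR3 3.32 and 3.45 FPKM, and TBK1, the kinase that activates IRF3, 18.1 and 26.6 FPKM, so several parts of the pathway were not lower in siStau1. EIF2AK2, which encodes the kinase PKR, had 75.3 and 60.2 FPKM.

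Among the signalling factors 11 of 14 expressed members were lower. USP18, an interferon-induced protease that removes ISG15 and dampens receptor signalling, fell from 28.3 to 6.78 FPKM and was the single call among 15 tested. STAT2 had 22.6 and 13.3 FPKM, IRF9 62.1 and 30.2 FPKM, and IRF7, the factor that amplifies interferon production, 11.8 and 6.11 FPKM, none of them called. JAK1, TYK2, STAT3 and IRF5, which are present without interferon, had log2 ratios between -0.01 and 0.16.

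Antiviral effectors held the largest number of calls, 10 of 23 tested genes, and all 22 members that reached 1 FPKM were lower in siStau1, with a median log2 ratio of -1.68. IFITM1, a membrane protein that blocks entry of enveloped viruses, went from 191 to 8.80 FPKM, 21.7-fold. Its neighbours IFITM2 and IFITM3 fell from 190.5 to 57.1 FPKM and from 599 to 203 FPKM (3.34-fold and 2.95-fold), and whether the family members differ in the size of the change was not tested. BST2, which tethers budding virus to the cell surface, fell from 116 to 11.3 FPKM. RSAD2, which encodes viperin, fell from 10.1 to 1.00 FPKM, and the nucleotide kinase gene CMPK2, which overlaps it in the genome, from 8.84 to 1.80 FPKM.

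The 2′-5′-oligoadenylate synthetases make a small messenger molecule when they bind double-stranded RNA. OAS3 fell from 54.3 to 17.6 FPKM and the inactive relative OASL from 51.2 to 7.20 FPKM. OAS1 (96.1 and 14.9 FPKM) and OAS2 (1.61 and 0.0735 FPKM) had ratios as large but were not called (q = 0.112 and 0.0638, the authors' deposited table). Among the IFIT genes, whose proteins bind viral RNA ends, IFIT1 fell from 207 to 79.4 FPKM, and IFIT2 (37.5 and 11.1 FPKM) and IFIT3 (41.9 and 10.3 FPKM) were not called. MX2 fell from 2.93 to 0.498 FPKM, and MX1, the better known dynamin-like GTPase of the pair, stood at only 3.74 and 2.08 FPKM without a call.

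IFI genes, a heterogeneous set named for their induction, held 8 calls among 23 tested genes, and all 22 members that reached 1 FPKM were lower in siStau1. IFI27, a mitochondrial protein gene among the most sensitive to interferon, fell from 402 to 37.2 FPKM and IFI6 from 752 to 149.8 FPKM. IFI44L and IFI44, which lie side by side on chromosome 1, fell from 17.2 to 1.19 FPKM and from 46.15 to 13.7 FPKM. IFI35 fell from 68.7 to 9.97 FPKM, LGALS9, which encodes galectin-9, from 10.8 to 1.04 FPKM, the helicase gene DDX60 from 25.1 to 10.0 FPKM, and PLSCR1, which encodes a phospholipid scramblase, from 119 to 51.4 FPKM. DDX60L, the paralog of DDX60, had 48.5 and 47.4 FPKM, the smallest ratio of the list.

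ISG15 is a ubiquitin-like modifier that is attached to newly made proteins, and 4 of the 5 genes on its list were called lower. The modifier gene ISG15 itself fell from 1359.6 to 319.98 FPKM, the second most abundant called protein-coding gene. The conjugating enzyme UBE2L6 fell from 71.4 to 27.2 FPKM. The ligase HERC5 and its relative HERC6 fell from 56.4 to 27.4 FPKM and from 22.5 to 10.2 FPKM. UBA7, the activating enzyme, had 1.31 and 0.235 FPKM and was not called.

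**Figure D2:**
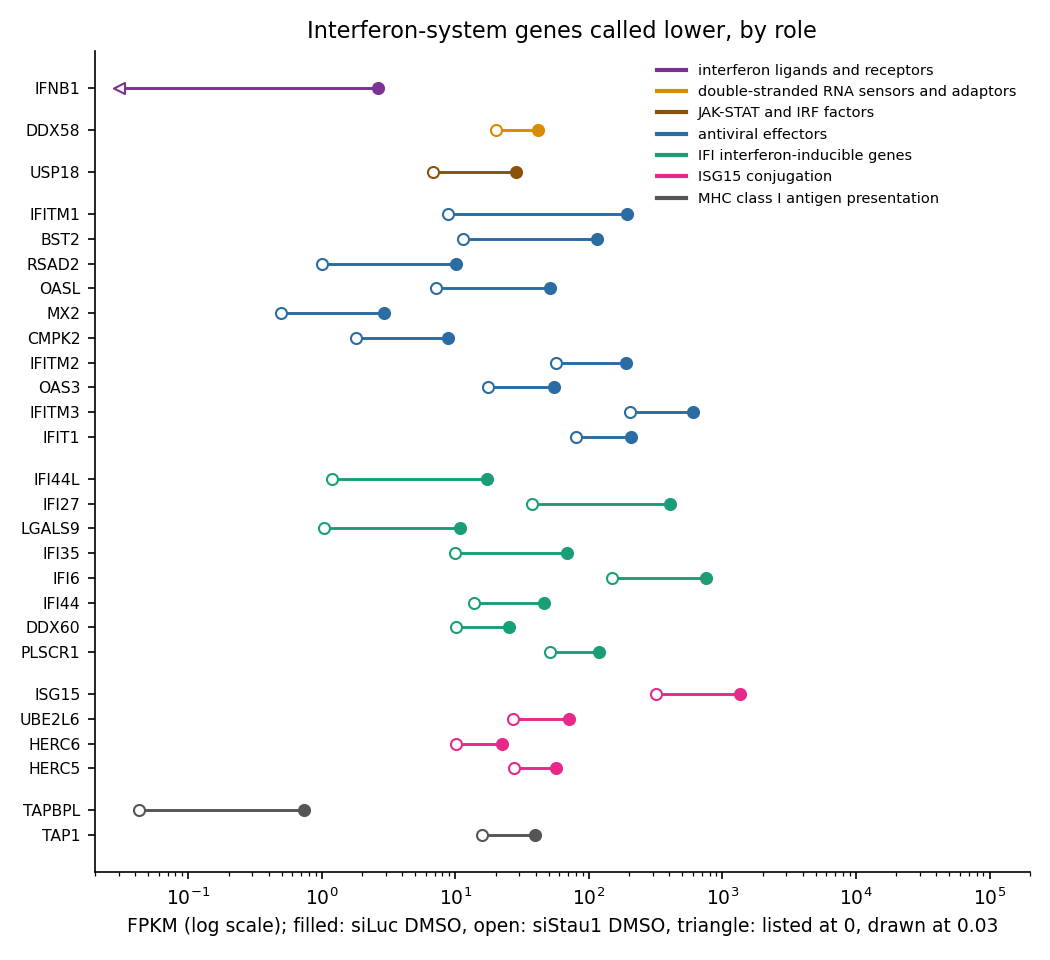
FPKM on a log axis of the 27 interferon-system genes called lower, with siLuc DMSO as filled and siStau1 DMSO as open symbols, ordered by role. Every line runs to the left in siStau1, IFNB1 as a triangle for a listed 0, and the levels span from below 1 FPKM (TAPBPL) to above 1000 FPKM (ISG15).

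Antigen presentation by MHC class I is partly under interferon control. Of 20 tested genes 2 were called lower, TAP1, a subunit of the peptide transporter, from 39.5 to 15.7 FPKM, and TAPBPL, a peptide editor, from 0.735 to 0.0427 FPKM. Without being called, 16 of the other 17 members that reached 1 FPKM were also lower, among them B2M, the invariant light chain (1442 and 799.6 FPKM), HLA-B (422 and 183 FPKM) and PSMB9, an immunoproteasome subunit (45.01 and 8.54 FPKM). HLA genes are near-identical to each other in places and their levels are uncertain. The list median of the log2 ratio was -0.89.

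Chemokines and targets of NF-kB had 0 calls among 16 tested genes in the authors' deposited Cuffdiff table, and 3 were lower at an unadjusted p under 0.05. Their median log2 ratio was -0.80. CCL5, a chemokine that attracts T cells, had 4.65 and 0.741 FPKM, CXCL10 1.53 and 0.0202 FPKM, and CXCL8 6.06 and 2.14 FPKM. The inhibitor NFKBIA had 53.2 and 36.1 FPKM and the factor NFKB1 18.6 and 17.5 FPKM.

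The promoters of the lower genes were examined for the interferon-stimulated response element, the site bound by the interferon-activated transcription factor complex. The motif searched was GAAA, any 2 bases and GAAA again, or its reverse complement (TTTC, any 2 bases, TTTC), so both strands were read, with overlapping matches allowed, in RefSeq windows of 300 bases (250 before to 50 after each start, GRCh38.p14). Of the 71 protein-coding calls 56 had a window. The 70-base stretches below are shown because they belong to called genes of different roles and lie wholly upstream of the start, with every match of the motif in capitals, 5′ to 3′ on the strand of the gene.
IFITM1 (chr11:313970-314039, plus strand): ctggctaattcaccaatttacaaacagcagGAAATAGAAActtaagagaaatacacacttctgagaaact
IFI44L (chr1:78620254-78620323, plus strand): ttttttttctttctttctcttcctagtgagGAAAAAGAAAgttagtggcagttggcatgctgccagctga
IFI27 (chr14:94110598-94110667, plus strand): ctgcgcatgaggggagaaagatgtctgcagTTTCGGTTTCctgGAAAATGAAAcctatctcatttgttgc
BST2 (chr19:17405721-17405790, minus strand): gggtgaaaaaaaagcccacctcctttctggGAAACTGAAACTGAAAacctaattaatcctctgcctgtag
ISG15 (chr1:1013354-1013423, plus strand): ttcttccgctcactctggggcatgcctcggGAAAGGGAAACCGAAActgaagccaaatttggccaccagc
OAS3 (chr12:112938301-112938370, plus strand): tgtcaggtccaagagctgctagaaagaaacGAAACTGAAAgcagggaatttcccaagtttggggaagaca
IFITM3 (chr11:320873-320942, minus strand): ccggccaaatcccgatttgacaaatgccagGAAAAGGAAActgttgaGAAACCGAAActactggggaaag
IFIT1 (chr10:89392477-89392546, plus strand): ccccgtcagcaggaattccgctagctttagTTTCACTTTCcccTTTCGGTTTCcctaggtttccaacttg
TAP1 (chr6:32853799-32853868, minus strand): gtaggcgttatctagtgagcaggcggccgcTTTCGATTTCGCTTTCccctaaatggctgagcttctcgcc

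The motif was in 3.57% of all 35116 windows and at 399 of 9861 tested protein-coding genes with a window (4.05%). It was at 18 of 42 called lower genes (42.9%) and at 1 of 14 called higher genes. Split by list membership, 16 of 23 lower genes in the interferon lists had it (69.6%), as did 2 of 19 outside them (10.5%), RGS4 and SHISA5. Interferon-list genes that were tested and not called had it in 31 of 62 cases. BST2, ISG15 and TAP1 carry overlapping copies, and IFITM3, IFI27 and IFIT1 carry a pair of separate ones in the stretch shown. A second motif was searched as well: TTC, any 3 bases and GAA. STAT factors can bind sites of this form, so it is not a neutral background. It was at 833 of 9861 tested protein-coding genes (8.45%), 11 of 42 called lower genes (26.2%) and 3 of 14 called higher genes. Of the lower genes in the interferon lists, 8 of 23 had this second motif (34.8%). A match is a description of the letters in a window, and binding was not measured.

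Several of the lower genes sit together. Within 100 kb of another gene called in the same direction lay 13 of the 127 called genes, and all 13 were lower. They comprise IFI44L with IFI44, IFITM1 with IFITM2 and IFITM3, RSAD2 with CMPK2, HERC5 with HERC6, BST2 with BISPR, and PLEKHA4 with PPP1R15A. BISPR is a long non-coding RNA that lies 38 bases from BST2 on chromosome 19 and fell from 2.996 to 0.423 FPKM. IFITM1 and IFITM2, and RSAD2 and CMPK2, overlap in the annotation, so reads in the shared stretch may count for either gene.

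Outside the interferon lists 25 protein-coding genes were called lower. Some of these are themselves known as interferon-responsive although the lists did not hold them: ZC3HAV1, which encodes the zinc finger antiviral protein ZAP, fell from 48.4 to 19.3 FPKM, APOL6 from 1.53 to 0.416 FPKM, SHISA5 from 82.2 to 31.5 FPKM and LAMP3, a lysosomal membrane protein gene, from 5.00 to 1.45 FPKM. APOL1 had 1.20 FPKM in siLuc and 0.0770 FPKM in siStau1. The stress response contributed PPP1R15A, which encodes the GADD34 subunit that reverses phosphorylation of eIF2 alpha (34.6 to 14.8 FPKM), and DDIT4, an inhibitor of mTORC1 (62.9 to 23.4 FPKM). Of the 21 expressed genes of the stress list 17 were lower, with a median log2 ratio of -0.40, and the transcription factors ATF4 (303 and 204 FPKM), ATF3 (28.7 and 12.9 FPKM) and DDIT3 (22.6 and 9.03 FPKM) were not called.

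Hypoxia and glycolysis genes had a single call, ADM, which encodes the vasodilator peptide adrenomedullin, at 49.2 to 18.9 FPKM, and 17 of 19 expressed members lower, with a median log2 ratio of -0.32. SLC2A1, the glucose transporter, had 52.5 and 33.4 FPKM and LDHA 1064 and 914 FPKM, neither of them called. Among epithelial genes, KRT17, a keratin of stressed epithelium, fell from 4.37 to 0.585 FPKM, the calcium-binding protein gene S100A14 from 263 to 114 FPKM and the heparan sulfate proteoglycan gene SDC4 from 54.5 to 26.02 FPKM.

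The remaining lower genes included some of the most abundant transcripts in the cells. RPS14, a protein of the small ribosomal subunit, fell from 2817 to 1308 FPKM, and it was the single call among 82 tested cytosolic ribosomal protein genes, whose median log2 ratio was -0.11. UQCRQ, a subunit of respiratory complex III, fell from 909 to 295 FPKM, again alone among 83 tested nuclear genes of oxidative phosphorylation, with a list median of -0.17. HIST1H4B, a histone H4 gene, fell from 1067 to 524 FPKM as the single call among 57 tested replication-dependent histone genes. Of these, 46 were lower and 11 higher, with a median log2 ratio of -0.40 (-0.18 after centring within GC bins), and 16 were lower and 0 higher at an unadjusted p under 0.05 in the authors' deposited table. Histone genes have near-identical copies, so their levels are uncertain. The linker histone gene H1F0 fell from 181 to 90.1 FPKM, DRAP1, a transcriptional repressor, from 221 to 78.9 FPKM, and POLR2F, an RNA polymerase subunit, from 199 to 89.4 FPKM.

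Fewer protein-coding genes rose, and of the gene lists used, that of p53 targets alone held any of them. Of the 19, 9 reached 1 FPKM in each group. CISD2, an iron-sulfur protein of the endoplasmic reticulum and mitochondrial outer membrane, rose from 28.2 to 102 FPKM, 3.61-fold, the largest of these. FAM111B, a protease gene, rose from 6.71 to 17.7 FPKM, TRIM24, a chromatin reader, from 4.68 to 12.4 FPKM, and ZMAT3, a p53 target that encodes an RNA-binding protein, from 1.46 to 3.90 FPKM. UFL1, the ligase of the ubiquitin-like modifier UFM1, rose from 7.04 to 16.5 FPKM, FAIM, an inhibitor of apoptosis, from 19.4 to 47.4 FPKM, RBBP9 from 6.69 to 15.6 FPKM, AK3, a mitochondrial adenylate kinase, from 12.6 to 26.7 FPKM, and LYPLA1, a depalmitoylating enzyme, from 40.0 to 91.3 FPKM. None of these 9 genes passes when p-values are adjusted within this comparison alone, where 3 higher and 13 lower protein-coding genes do; the value for CISD2 is then 0.123.

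The other 10 risen protein-coding genes were low in siLuc, below 1 FPKM in each. NANOS3, a germ cell RNA-binding protein gene, was listed at 0 in siLuc and had 2.201 FPKM in siStau1. Of the germline list, however, only 3 of 14 genes were tested and 0 were called, nor was any at an unadjusted p under 0.05 in the authors' deposited Cuffdiff table. ZMAT3 was the single call among 22 tested p53 targets, of which 11 were higher and 11 lower: CDKN1A, the cell cycle inhibitor, had 51.1 and 47.5 FPKM, and MDM2 85.3 and 127 FPKM.

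**Figure D3:**
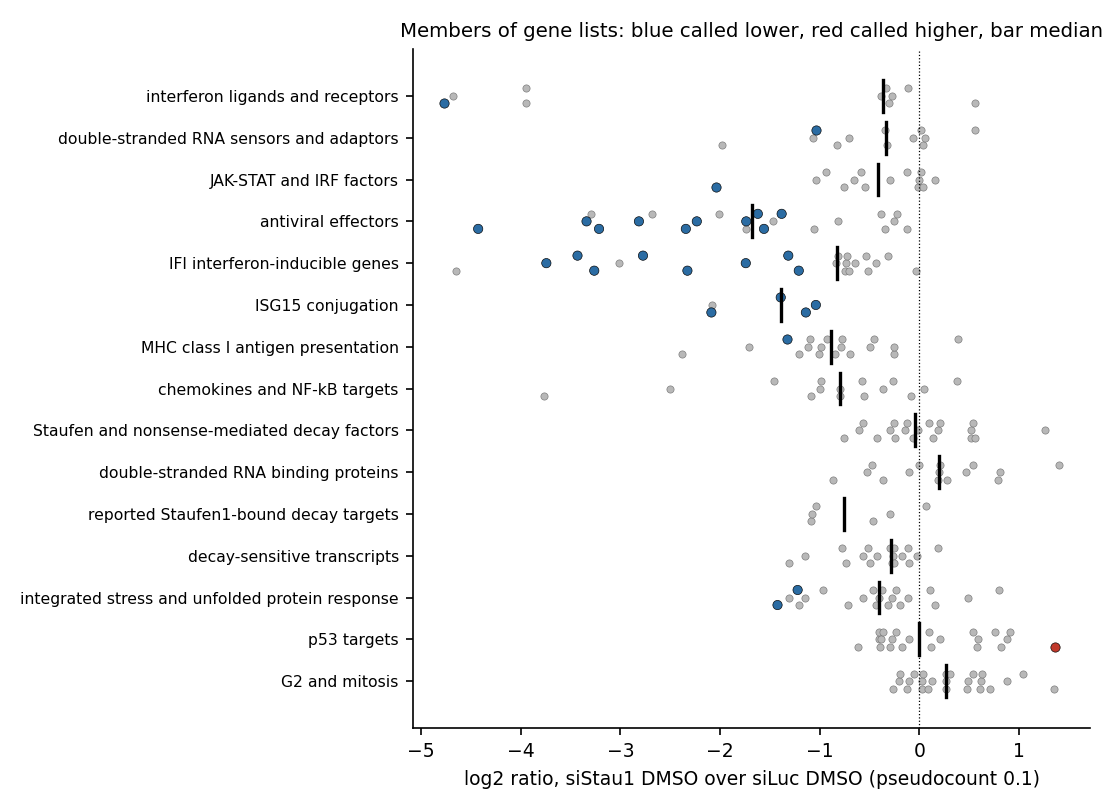
Log2 ratio of siStau1 over siLuc in DMSO for the members, with at least 1 FPKM in either group, of 15 gene lists, with called genes in color and the median of each list as a bar. The medians of the antiviral (-1.68), ISG15 (-1.39) and MHC class I (-0.89) lists lie below 0, and those of the Staufen and decay factors (-0.04) and double-stranded RNA-binding proteins (0.20) lie near it with no called member.

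Pseudogenes formed the largest class of higher calls. AC079140.2 rose from 52.4 to 554 FPKM, AC079922.1 from 44.2 to 171 FPKM, FTH1P20 from 5.84 to 44.8 FPKM and FTH1P8 from 2.80 to 19.8 FPKM. Over all 1356 tested processed pseudogenes the median log2 ratio was 0.31, and 0.30 after centring within GC bins, against -0.03 for tested protein-coding genes. Pseudogenes held 0.739% of all FPKM in siLuc and 1.03% in siStau1. The total they are a share of was itself smaller in siStau1, at 967548 FPKM against 1.129e+06 FPKM in siLuc. Reads from a processed pseudogene and from the gene it was copied from can be nearly the same, and how the authors' tools shared such reads is not given in the sources used here.

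The parent genes were set beside the pseudogenes. Of the 40 called pseudogenes 19 are named for a protein-coding gene, 18 different genes in all, and 0 of these parents were called, with log2 ratios between -0.73 and 0.83. FTH1, which encodes the ferritin heavy chain and is the parent of both FTH1P20 and FTH1P8, had 836 and 807 FPKM. RPL12P12 rose from 14.2 to 55.6 FPKM while RPL12 had 2823 and 2142 FPKM, and TPT1P6 rose from 5.32 to 27.4 FPKM while TPT1 had 2606 and 2876 FPKM. In the opposite direction, PTMAP5 fell from 471 to 158 FPKM while PTMA, which encodes prothymosin alpha, had 3474 and 2090 FPKM. In each of these pairs the parent had the higher level, and the sharing of reads between the members of a pair was not tested.

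**Figure D4:**
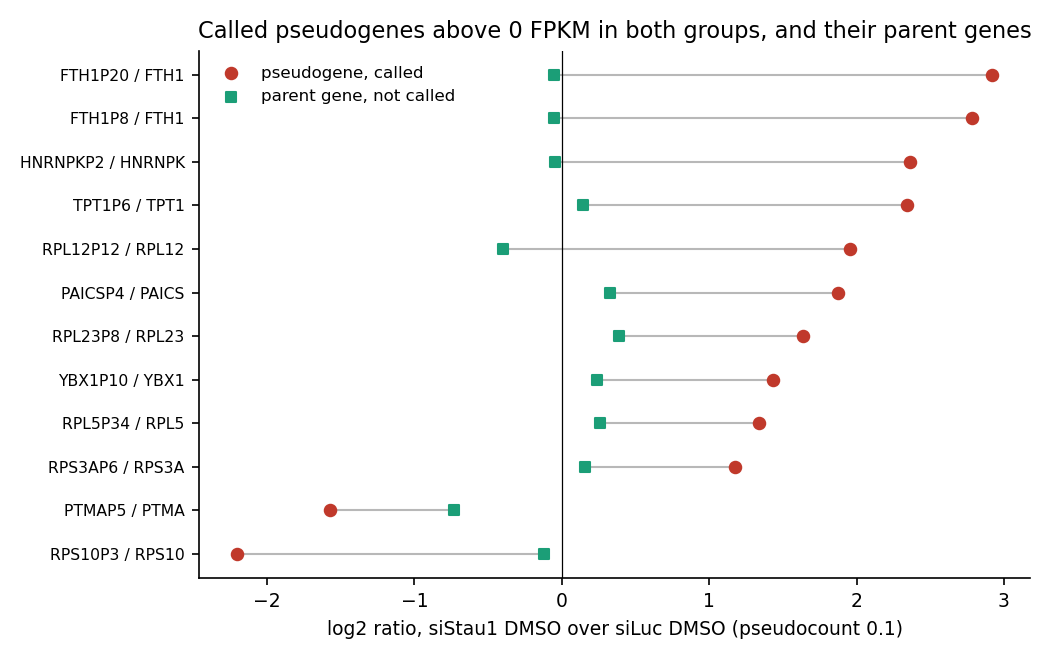
Log2 ratio of siStau1 over siLuc in DMSO for 12 called pseudogenes (circles) and for the protein-coding genes they are named for (squares). Drawn are the called pseudogenes named for a protein-coding gene that were above 0 FPKM in both groups. The pseudogenes lie from -2.20 to 2.92, and their parents, none of them called, between -0.73 and 0.39.

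Of the 11 other non-coding RNAs called lower, 4 were small structured RNAs at high level in siLuc. SCARNA2, a guide RNA of the Cajal body, fell from 1438 to 399.9 FPKM. A pair of genes annotated with the U1 small nuclear RNA family, both on chromosome 1, fell from 2485 to 896 FPKM and from 2074 to 895 FPKM, and as near-identical copies they are not independent of each other. RNY3, a Y RNA of 102 bases that is bound by the Ro60 protein, had 2813 FPKM in siLuc and was listed at 0 in siStau1. A listed 0 need not mean absence here: 14 genes had 0 in one DMSO group and at least 20 FPKM in the other, among them RPS29, a ribosomal protein gene that every cell uses, listed at 0 in siLuc and at 244 FPKM in siStau1. Of all calls, 33 had a group at 0, 15 of them lower and 18 higher, and 43 had a group under 0.1 FPKM.

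Genes through which Staufen1 is known to act showed no calls. Among 20 Staufen and nonsense-mediated decay factors, 0 were called and 1 was higher at an unadjusted p under 0.05 in the authors' deposited Cuffdiff table, and the median log2 ratio was -0.04. UPF1, the helicase that Staufen1 recruits, had 15.3 and 10.0 FPKM, UPF2 12.9 and 18.8 FPKM, and UPF3B, the member with an unadjusted p under 0.05, 7.21 and 17.4 FPKM. The 6 expressed genes that have been reported as bound by Staufen1 and decayed through it had 0 calls and 2 lower at an unadjusted p under 0.05. Of these, 5 were lower in siStau1, with a list median of -0.75: ARF1 had 163 and 133 FPKM, JUN 3.18 and 1.45 FPKM, and XBP1 66.9 and 48.4 FPKM. Transcripts sensitive to nonsense-mediated decay also had 0 calls, and 0 at an unadjusted p under 0.05, among 18 genes, of which 17 were lower with a median of -0.28. ATF4, ATF3 and DDIT3 are in this list as well as in that of the stress response. GAS5, a snoRNA host, had 389 and 272 FPKM, and SRSF3, whose poison exon triggers decay, 759 and 457 FPKM.

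Other proteins that bind double-stranded RNA had 0 calls, and 0 at an unadjusted p under 0.05, among 15 genes. ADAR, the editing enzyme that marks cellular double-stranded RNA as self and is itself interferon-induced in one isoform, had 121 and 93.6 FPKM, DHX9, a helicase that unwinds it, 145 and 165 FPKM, and DICER1 11.1 and 19.5 FPKM. Envelope genes of endogenous retroviruses were tested in 4 cases with 0 calls and 0 at an unadjusted p under 0.05. ERVK3-1 had 31.5 and 27.8 FPKM, ERVMER34-1 8.21 and 10.7 FPKM, and ERV3-1 4.34 and 1.95 FPKM. These are protein-coding loci, and repeat copies of retroviruses are not in the gene table.

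Growth programmes held no calls. Genes of G2 and mitosis had 0 calls among 25 and 4 higher at an unadjusted p under 0.05. Of these genes 19 were higher in siStau1, with a median log2 ratio of 0.27, and HMMR, a spindle protein gene (39.3 and 81.0 FPKM), came closest (q = 0.0512, the authors' deposited table). DNA replication genes split into 12 higher and 14 lower, with a median of -0.06 that turned to 0.02 after centring within GC bins. MT-CO1, MT-CO2 and MT-CO3 had 726 and 1035, 1105 and 1394, and 1093 and 1675 FPKM, and 12 of the 15 expressed mitochondrial genes were higher, with a median log2 ratio of 0.32 and 0 calls. The members with an unadjusted p under 0.05 in the authors' deposited table were both lower, MT-ND3 (1072 and 609.7 FPKM) and MT-ND6 (46.7 and 16.7 FPKM). In the decitabine groups all 15 were lower in siStau1, so this small offset did not have the same direction in both arms.

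Sequence composition moved with the calls. The median GC content of the longest transcript was 52.2% for called lower protein-coding genes, 40.3% for called higher ones and 48.2% for all tested ones, and 15 of 19 higher genes were below 45%. Their 3′ untranslated regions, the sites at which Staufen1 is known to bind for decay, had median lengths of 640, 3227 and 1577 bases. Genes are not independent of each other, so correlations across them are a description. Spearman's rho of the log2 ratio with GC content was -0.487 in DMSO (10965 genes) and -0.715 with decitabine (11593 genes). With 3′ untranslated region length, rho in DMSO was 0.181 (9293 genes), and -0.014 once the ratio was centred within 20 bins of GC content. The interferon-list genes called lower had a median log2 ratio of -2.09 before and -2.05 after this centring, and IFI44L and IFI44, with a GC content of 37.8% and 39.1%, fell although the median ratio of genes of like GC content was above 0. For the 25 lower genes outside the lists the median went from -1.38 to -1.14, and for the 19 higher genes from 1.44 to 1.27. The part of GC content in the calls was not tested.

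The share past 2-fold varied with level. Among tested protein-coding genes, 11.5% of those with a mean of 1 to 5 FPKM differed by 2-fold or more, against 3.92% from 5 to 20, 3.10% from 20 to 100 and 3.24% from 100 FPKM upward. Over the 10965 protein-coding genes that reached 1 FPKM in each group, 276 were lower by 2-fold or more (2.52%) and 201 higher (1.83%), and of these 41 and 9 were called. Most genes past 2-fold were therefore not separated from the spread between libraries by the authors' test.

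The decitabine groups give the same contrast in libraries that the DMSO comparison does not use. There, 0.904% of 17263 tested genes were called, 0.469% lower and 0.434% higher. Among protein-coding genes these shares were 0.452% lower and 0.542% higher, and among processed pseudogenes 0.0845% lower and 0.0845% higher. Of the 127 genes called in DMSO, 94 had the same direction, 30 the opposite one and 3 equal levels. That count includes pseudogenes and other non-coding RNAs. Of the protein-coding calls alone, at any level, 43 of 52 lower ones and 15 of 19 higher ones kept their direction. Of all protein-coding genes that reached 1 FPKM in each DMSO group, 4085 of 5685 lower ones and 3482 of 5279 higher ones did. After centring within GC bins, 92 of the 127 kept their direction, as did 42 of 52 lower and 13 of 19 higher protein-coding calls. The background after centring was 3178 of 5685 and 3117 of 5279. Whether these shares differ was not tested. Only 96 of the 127 were tested with decitabine, and 15 of these were called, all in the same direction. The interferon genes were called lower again in part: IFITM1 fell from 562 to 239 FPKM, IFI27 from 1138 to 592 FPKM, IFI6 from 1669 to 675 FPKM, ISG15 from 4708 to 2065 FPKM, OASL from 239 to 84.0 FPKM, IFI35 from 234 to 92.1 FPKM and IFITM3 from 1337 to 703 FPKM. Of the 27 interferon-list genes called in DMSO, 22 were lower there and 7 called, and the median log2 ratio was -2.09 in DMSO and -0.86 with decitabine. After centring within GC bins, the decitabine median was -0.47 and 25 of the 27 were lower. Whether the size of the change differs between the arms was not tested, since no levels per library were given.

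Of the 27 interferon-list genes called lower in DMSO, 5 were at a higher level in siStau1 with decitabine, and none of the 5 was called there: IFIT1 had 83.6 FPKM in siLuc and 125 FPKM in siStau1, IFI44 18.9 and 26.1 FPKM, DDX60 19.7 and 22.9 FPKM, DDX58 51.7 and 53.5 FPKM, and PLSCR1 80.5 and 81.2 FPKM. Among interferon-list genes not called in DMSO, a pair were called higher with decitabine: SAMD9, an antiviral factor (11.4 to 30.03 FPKM, against 30.98 and 24.4 FPKM in DMSO), and IFNGR1 (4.88 to 14.3 FPKM). In the other direction, 11 genes of the 5 intracellular response lists and 3 of the ligand and receptor list were called lower with decitabine. Of these, 7 had been called lower in DMSO. The 5 genes from IFIT1 to PLSCR1 above have transcripts with a GC content from 39.1% (DDX60) to 42.2% (IFIT1). With decitabine the median log2 ratio of the lowest GC bin was 0.62 and that of the highest -0.63. The part of GC content in these directions was not tested. Outside the interferon lists, 21 of 25 lower protein-coding genes were lower with decitabine too, against the 4085 of 5685 above. After centring within GC bins, 17 of the 25 were, against 3178 of 5685. Of the 22 that were tested there, 4 were called: KRT17 (198 to 40.3 FPKM), APOL1 (20.9 to 7.04 FPKM), ZC3HAV1 (108 to 44.9 FPKM) and PPP1R15A (121 to 58.6 FPKM). RPS14 (2208 and 2065 FPKM) and UQCRQ (638 and 588 FPKM) were not called there.

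Of the 53 higher genes, 34 were tested with decitabine and 1 was called again. Of 19 higher protein-coding genes 15 were higher with decitabine, against 3482 of 5279 for all higher ones, and 0 of the 15 tested were called in the authors' deposited Cuffdiff table. CISD2 had 8.22 and 14.9 FPKM and UFL1 2.71 and 6.44 FPKM. Of the 29 higher pseudogenes 19 were higher, 9 lower and 1 equal, and 0 of the 17 that were tested there were called. AC079140.2 had 62.4 and 61.2 FPKM there, and FTH1P20 10.2 and 6.79 FPKM. The single higher call in both arms was ZRANB2-AS2, an antisense RNA, at 0.480 to 1.39 FPKM in DMSO and 0.0771 to 0.904 FPKM with decitabine.

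**Figure D5:**
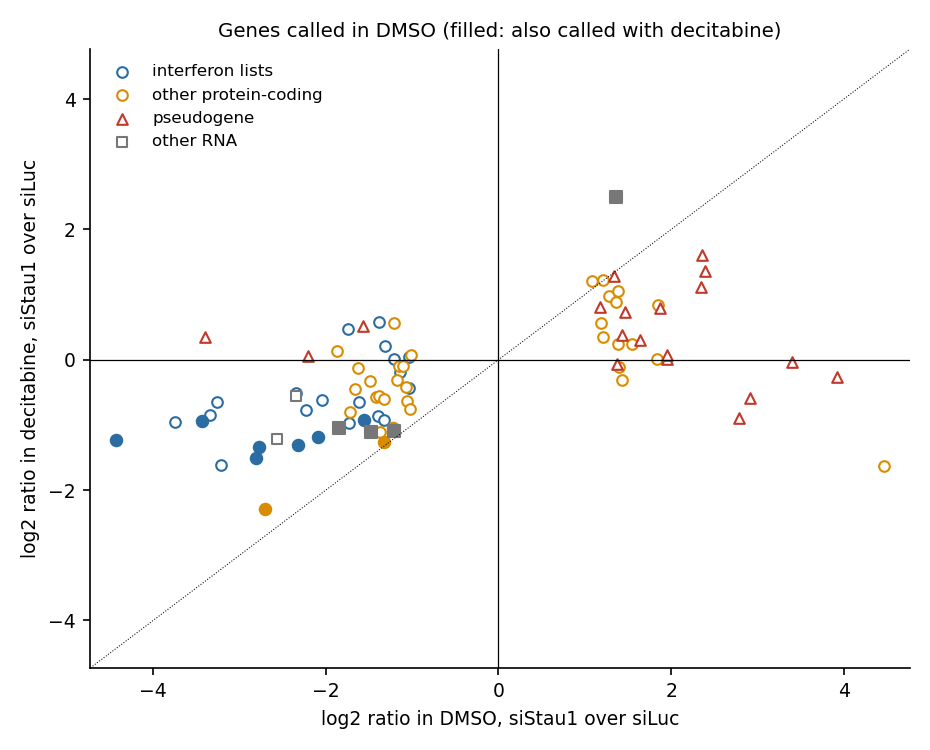
Log2 ratio of siStau1 over siLuc in DMSO against that with decitabine for the 84 called genes at 0.1 FPKM or more in each DMSO group, where filled symbols mark the 14 that were called in both arms. Of these 84 genes 65 have the same direction in both, and 81 have the smaller ratio with decitabine, the genes having been chosen by their DMSO calls.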

How the data were processed

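Total RNA libraries were made with stranded, ribosomal RNA-depleted kits, per the labels' protocols. The submitters' processing notes name bcl2fastq 2.20, HISAT2 2.1.0, featureCounts, DESeq 1.36.0, Cuffdiff 2.2.1, Cuffnorm 2.2.1 and the build hg38, without saying which made which file. The authors deposited 1 FPKM value per group, per the file headers, from 2 libraries each. They also deposited a p-value and a q-value for each of 6 comparisons. Pooling the 102180 tests of the 6 comparisons and adjusting by Benjamini-Hochberg returned the deposited q-value to within 5.27e-07. Adjusted within this comparison alone, 33 genes pass.

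Computed here were log2 ratios, with 0.1 FPKM added as pseudocount, which understates the change of low genes, list counts and medians over genes with at least 1 FPKM in either group, and medians after subtracting the median of each of 20 GC content bins (Python 3.11.15, pandas 2.3.3, NumPy 2.4.6, SciPy 1.17.1). All gene identifiers are in GENCODE 29 on GRCh38, which gave biotypes, GC content and untranslated regions. The script was checked on simulated data. No test was run here, since no value per library was given; "called", "rose" and "fell" are the authors' q-values under 0.05.

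The gene lists and the members were chosen with earlier results of these data known. Genes were named by rule: STAU1 and STAU2, up to 15 called protein-coding genes per direction by size of ratio with at least 1 FPKM in both groups, the 5 per direction with a group under 0.1 FPKM and the highest other level, 3 of other biotypes, called list members, the 3 highest members of lists with no call, and the 5 called genes with the highest mean. All other named genes were chosen after their values were seen. Libraries from J2 antibody pull-down include no siStau1 DMSO group and were not analysed here. Some genes are not reported here.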

Additional observations from a re-analysis of the deposited data

How the results depend on the processing

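The count of called genes followed the limit and the set of genes more than the ratio. At a q-value under 0.01 it was 55 (32 lower), under 0.10 it was 225 (119 lower), adjusted within this comparison 33 (20 lower), with at least 1 FPKM in both groups 71 (47 lower) and among protein-coding genes 71 (52 lower), against 127 (74 lower). By alternatives chosen after seeing the data, 94 calls had no group at 0, and 112 were past 2-fold in the same direction after centring within GC bins. Adjusted within the comparison, 12 of the 33 were in the interferon lists. The count of protein-coding genes past 2-fold, 477, was 285 with a pseudocount of 1, 229 with at least 5 FPKM in both groups and 1608 with no minimum. Centring within GC bins gave 335 and moved the lower share of genes past 2-fold from 276 of 477 to 179 of 335. The interferon-response median lay between -0.94 and -0.78 under the 6 alternatives run, and 92 to 94 of the 127 genes had the same direction with decitabine. The p53 target median, -0.0035, was 0.19 after centring within GC bins. In all, 6 of 98 list medians and named genes changed sign there, all of them list medians near 0: the others were Wnt targets (-0.14 to 0.09), metallothioneins (-0.10 to 0.14), heat shock (-0.09 to 0.02), DNA replication (-0.06 to 0.02) and zinc finger genes (0.04 to -0.01). No paired analysis was possible because the deposited table gives 1 value per group, which also kept replicates from being left out. The depth is unknown.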
